A study of Mus musculus with 8 samples.

Results

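The replication-dependent histone genes of the mouse were taken from the joint table of read counts as every gene whose name begins with Hist1h, Hist2h, Hist3h or Hist4h followed by a class H1, H2A, H2B, H3 or H4, with names ending in -ps left out. This gave 69 of 55421 genes: 6 of class H1, 20 of H2A, 18 of H2B, 12 of H3 and 13 of H4. By cluster, 56 were Hist1 genes, 10 were Hist2 genes, 2 were Hist3 genes and 1 was a Hist4 gene. The study compared total RNA of small intestine from wild-type (WT) mice in 2 groups of 4 samples. The Hypoxia+Nitrate mice were kept at 7% O2 for 7 days and given 4 mM nitrate, and the Hypoxia mice were kept at the same 7% O2 for 7 days without it. Both groups were therefore hypoxic, and no group in normal air was analysed here. The question was how nitrate changes gene expression of the gut under low oxygen. The labels do not say that the samples of a group came from separate animals, so p-values measure only the spread between these samples.

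Replication-dependent histone genes supply the histones that package newly copied DNA, and their messages normally accumulate during S phase, when cells replicate their genome. Most of these genes have no intron and their messages end without a poly(A) tail, behind a conserved stem-loop that the stem-loop binding protein recognises. In small intestine the dividing cells lie in the crypts, while the differentiated cells of the villus have left the cell cycle and draw on replication-independent variants such as H3.3 and H2A.Z, whose messages are polyadenylated.

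The libraries differed in much more than the histone genes. Total counts were 8662279 to 63943036 in Hypoxia+Nitrate and 5345377 to 21835865 in Hypoxia. Odorant, vomeronasal and trace-amine receptor genes, taken as mostly silent in gut, had a count in 31.3% to 82.3% of 1444 cases in the Hypoxia+Nitrate libraries and in 99.0% to 99.6% in the Hypoxia libraries. The density of counts on these genes gives a background level per kb of exon. Scaled to every nuclear protein-coding gene, it amounted to 2.92%, 23.2%, 19.997% and 2.76% of their counts in Hypoxia+Nitrate 1 to 4 and to 63.8%, 39.0%, 54.4% and 46.8% in Hypoxia 1 to 4. Hypoxia+Nitrate 1 and 4 therefore stood apart from Hypoxia+Nitrate 2 and 3. Mitochondrial messages were 64.0% and 49.3% of all counts in Hypoxia+Nitrate 1 and 4, 7.31% and 6.90% in Hypoxia+Nitrate 2 and 3, and 0.423% to 1.06% in the Hypoxia libraries. Genes of the ribosomal DNA locus held 2.33%, 21.96%, 4.95% and 3.42% of all counts in Hypoxia+Nitrate 1 to 4 and 75.7%, 73.7%, 7.06% and 44.97% in Hypoxia 1 to 4. The part of these differences in the histone values was not tested.

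The 3′ stem-loop was searched in the annotated transcripts (GENCODE M21, GRCm38) of all 69 genes. The search used a fixed pattern of a 6-base stem, a 4-base loop and a closing stem. It was found in 44 of the genes. A stem-loop past the annotated end of a transcript would be missed. Every one of the 10 H4 genes that held it had the stem GGCCCT, and all 34 genes of the other classes that held it had the stem GGCTCT. The sequences of the 5 called members that hold one are shown here because they separate members by how far the annotated transcript runs on. Capitals mark the stem-loop, and the places are chr13:23739507-23739532 (plus strand) for Hist1h1c, chr6:136803993-136804018 (minus) for Hist4h4, chr3:96262934-96262959 (minus) for Hist2h4, chr13:21787918-21787943 (plus) for Hist1h2bp and chr13:22042478-22042503 (minus) for Hist1h2ag.
Hist1h1c: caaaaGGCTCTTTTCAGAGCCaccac
Hist4h4: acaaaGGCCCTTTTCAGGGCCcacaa
Hist2h4: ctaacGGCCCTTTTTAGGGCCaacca
Hist1h2bp: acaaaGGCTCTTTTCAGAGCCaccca
Hist1h2ag: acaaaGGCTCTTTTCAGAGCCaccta
The annotated transcript ran on past the loop for 840 bases in Hist1h1c, 2445 in Hist4h4 and 1257 in Hist2h4, but for only 38 in Hist1h2bp and 23 in Hist1h2ag. No stem-loop was found in the annotated transcripts of Hist1h2bc and Hist1h2br, the other two members that passed the test. These 2 genes are annotated with introns, as are Hist1h2bq, Hist1h2bp and Hist1h2be, the other members with several exons.

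Summed over all 69 genes, the histone counts per 10000 counts in nuclear protein-coding genes were 5.36, 10.1, 10.9 and 6.27 in Hypoxia+Nitrate 1 to 4, against 9.16, 9.42, 9.80 and 8.36 in Hypoxia 1 to 4. The groups overlapped: Hypoxia+Nitrate 1 and 4 lay below every Hypoxia library, and Hypoxia+Nitrate 2 and 3 lay above. The means were 8.15 ± 2.74 in Hypoxia+Nitrate and 9.19 ± 0.610 in Hypoxia (SD, n = 4 each), a log2 ratio of -0.17. The sign of that ratio depended on the denominator. It was 0.27 relative to all counts and 1.06 in CPM, edgeR's counts scaled to a common library size with TMM factors. In bulk tissue, fewer cells of a type and less RNA per cell cannot be told apart.

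What the family was made of differed more than its sum. Class H4 gave 0.11, 0.54, 0.18 and 0.24 counts per 10000 in Hypoxia+Nitrate 1 to 4 and 1.40, 1.39, 1.46 and 1.17 in Hypoxia 1 to 4, without overlap. Class H3 gave 0.09, 0.47, 0.45 and 0.24 in Hypoxia+Nitrate and 1.09, 0.85, 1.41 and 0.74 in Hypoxia, without overlap on this scale. In summed TMM-scaled CPM the groups overlapped for H3, at 6.25, 13.4, 13.7 and 18.5 in Hypoxia+Nitrate and 19.03, 17.5, 25.9 and 14.996 in Hypoxia, while H4 stayed apart at 5.28 to 18.5 in Hypoxia+Nitrate and 23.5 to 28.5 in Hypoxia. Class H1 gave 2.78, 2.52, 4.50 and 2.51 counts per 10000 in Hypoxia+Nitrate, above its 2.13, 2.28, 1.42 and 1.13 in Hypoxia. Hist1h1c carried that sum, with 2599 of 2644 H1 counts in Hypoxia+Nitrate 1 and 149 of 555 in Hypoxia 1. Without Hist1h1c, left out after its values were seen, the other H1 genes gave 0.05, 0.67, 0.26 and 0.12 counts per 10000 in Hypoxia+Nitrate, below their 1.56, 1.28, 1.15 and 0.88 in Hypoxia. In CPM these H1 genes overlapped, at 3.20 to 19.0 in Hypoxia+Nitrate and 17.8 to 27.1 in Hypoxia. Classes H2A and H2B overlapped between the groups in counts per 10000. These shares of a total depend on the nuclear protein-coding counts, of which the background level makes up more in Hypoxia. Set against the background level of each library, H4, H3 and the other H1 genes all overlapped between the groups. H4 stood at 0.754 to 7.42 times it in Hypoxia+Nitrate and 1.88 to 3.06 times in Hypoxia. H3 stood at 2.48 to 10.6 and 1.94 to 3.16 times, and the other H1 genes at 1.06 to 3.38 and 1.54 to 2.67 times. The part of the background in these class values was not tested.

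**Figure D1:**
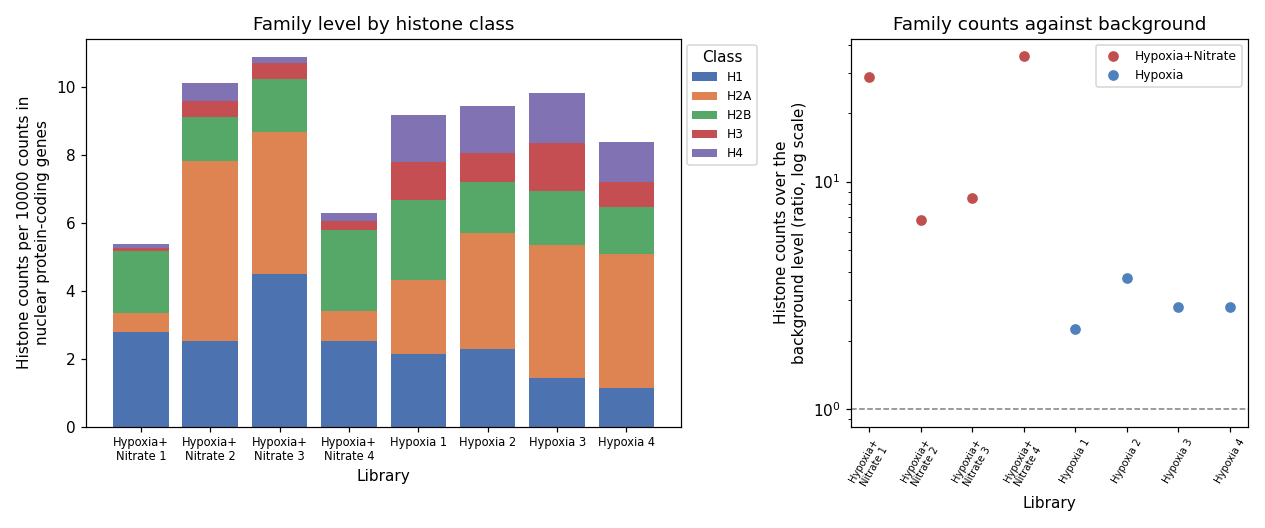
Left, histone counts per 10000 counts in nuclear protein-coding genes, stacked by class, in the 4 Hypoxia+Nitrate and 4 Hypoxia libraries; right, the summed histone counts divided by the background level of the same library, on a log axis, with 1 (dashed) meaning no more than background. The ratio was 6.80 to 35.5 in the Hypoxia+Nitrate libraries and 2.24 to 3.77 in the Hypoxia libraries.

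A few genes carried most of the counts in Hypoxia+Nitrate, on a scale of counts that does not allow for gene length. Hist1h1c alone gave 51.0%, 18.3%, 39.0% and 38.2% of all histone counts in Hypoxia+Nitrate 1 to 4, and 6.23%, 10.6%, 2.81% and 2.93% in Hypoxia 1 to 4. Hist1h2bc gave 23.5%, 2.75%, 2.56% and 28.6% in Hypoxia+Nitrate and 1.88%, 2.71%, 2.02% and 1.53% in Hypoxia. The first was higher in every Hypoxia+Nitrate library, while the second was high in Hypoxia+Nitrate 1 and 4 alone. The 5 highest members together made up 69.1% to 83.2% of histone counts in Hypoxia+Nitrate and 35.2% to 43.0% in Hypoxia. Without Hist1h1c and Hist1h2bc, a pair singled out after their values were seen, the remaining 67 genes gave 1.37, 7.98, 6.35 and 2.08 counts per 10000 in Hypoxia+Nitrate and 8.42, 8.17, 9.33 and 7.99 in Hypoxia. In summed CPM the same 67 genes overlapped between the groups, at 92.3, 227, 191 and 161 in Hypoxia+Nitrate and 147, 167, 172 and 161 in Hypoxia. Against the background level they stood higher in Hypoxia+Nitrate, at 5.20 to 12.3 times it, than in Hypoxia, at 2.16 to 3.43 times. Per kb of exon, the highest mean levels in Hypoxia+Nitrate were those of Hist1h2af at 90.7 CPM per kb, Hist1h1c at 88.3, Hist1h2al at 60.8 and Hist1h2bc at 52.0. In Hypoxia the same genes had 44.5, 6.48, 28.7 and 3.13 CPM per kb.

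Fewer members were detected in Hypoxia+Nitrate. A count was present for 45, 55, 50 and 55 of the 69 genes in Hypoxia+Nitrate 1 to 4 and for 65, 62, 66 and 64 in Hypoxia 1 to 4. The receptor genes with a count were likewise fewer in Hypoxia+Nitrate, at 31.3%, 82.3%, 55.8% and 41.4% in Hypoxia+Nitrate 1 to 4, though within that group their order was not that of the members. The part of the background in detection was not tested. Set against the background level of each library, the median member stood at a ratio of 2.36, 2.38, 1.52 and 6.03 in Hypoxia+Nitrate and 2.24, 3.02, 2.57 and 2.16 in Hypoxia. A count of 0 allows up to 3 counts, which is 0.146 to 0.213 CPM in a Hypoxia+Nitrate library and 0.158 to 0.218 CPM in a Hypoxia library. These limits cover counting error only. Hist2h3b and Hist2h2bb had no count in any library, and neither has exonic sequence free of other gene models.

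**Figure D2:**
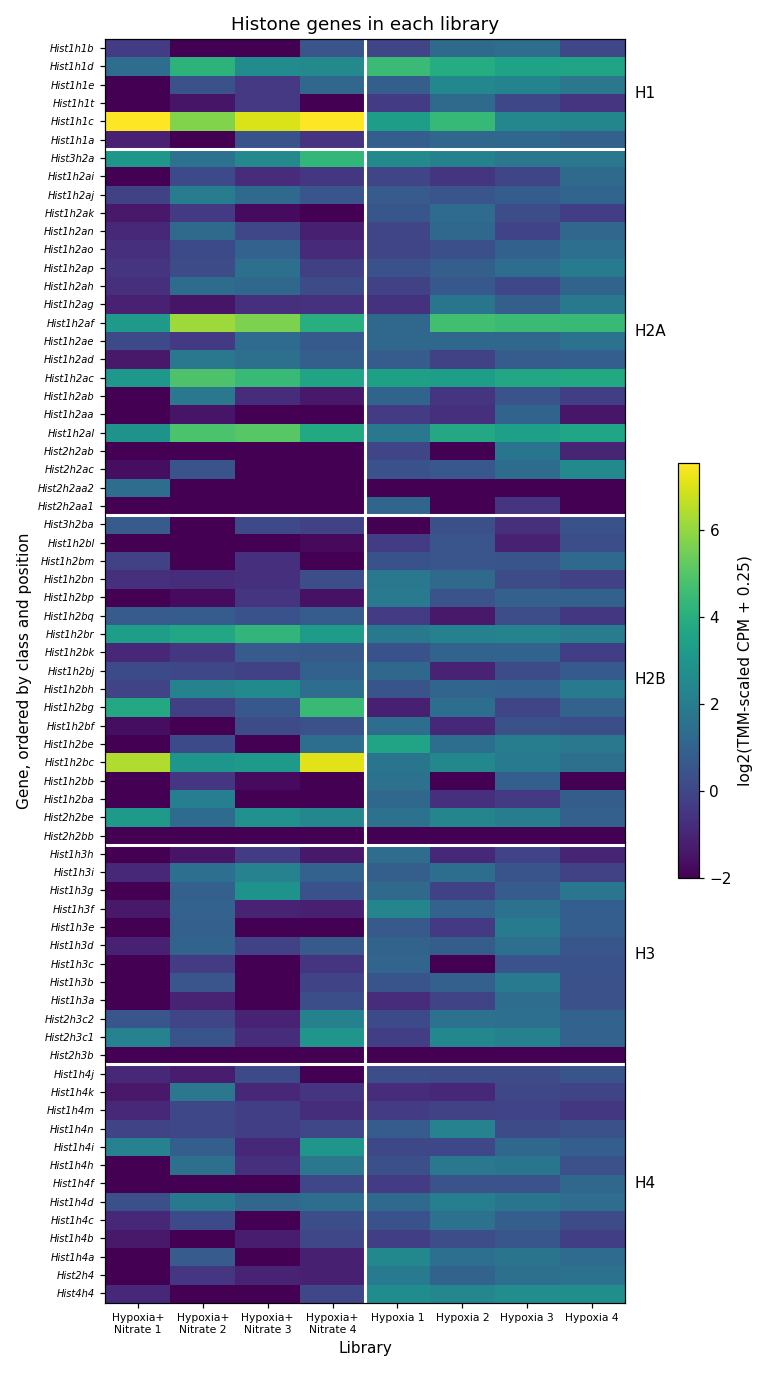
TMM-scaled CPM of the 69 histone genes, as log2(CPM + 0.25), in the 4 Hypoxia+Nitrate and 4 Hypoxia libraries, with rows ordered by class and position. Hist1h1c is the brightest row in Hypoxia+Nitrate, and most H3 and H4 rows are darker there than in Hypoxia.

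In the fit of all genes by edgeR's quasi-likelihood test, 54 of the 69 members passed the filter on low counts. At a Benjamini-Hochberg adjusted p of 0.05 over 35431 genes, 3 members rose in Hypoxia+Nitrate and 4 fell, and the other 47 did not pass. The 3 that rose are 5.56% of the members tested, against 11.7% of all genes tested, and the 4 that fell are 7.41%, against 12.7% of all genes. The groups did not overlap for 4 members that were higher in Hypoxia+Nitrate (12.0% of all genes tested) and for 10 that were lower (28.8% of all genes). The share of members called was thus below the background of this comparison in both directions. The median log2 fold change of Hypoxia+Nitrate over Hypoxia was -0.73 over the members and -0.58 over all genes, and 18 of the 54 members had a positive value. Scaling moved both medians together. They were -1.02 and -0.87 with RLE factors, -1.09 and -0.94 with upper-quartile factors, and -1.24 and -1.07 by library size alone.

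The calls depended on single libraries. With any 1 Hypoxia library left out, no member was called lower. At an unadjusted p under 0.05, 3, 3, 4 and 5 members were lower without Hypoxia 1, 2, 3 and 4. Of all genes, 1256 of 34746, 3101 of 36660, 2655 of 38001 and 2803 of 38580 were called lower in these fits. Without Hypoxia+Nitrate 2, 5 of 61 members were called higher and 12 lower, against 5974 and 16480 of 41753 genes. Without Hypoxia+Nitrate 4 only 2 of 57 members were called lower, against 4679 of 37453 genes. Without Hypoxia 1, only Hist1h1c was called higher among 55 members, against 676 of 34746 genes. With Hypoxia+Nitrate 2 and 3 left out together, a comparison added after seeing the data, 6 of 65 members were called higher and 21 lower. Of 45788 genes in that fit, 6876 were called higher and 25004 lower. With Hypoxia+Nitrate 1 and 4 left out, 4 of 63 members were called higher and 4 lower, against 4243 and 7394 of 42069 genes. Of these members, 4 in all were among the 7 called with every library.

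**Figure D3:**
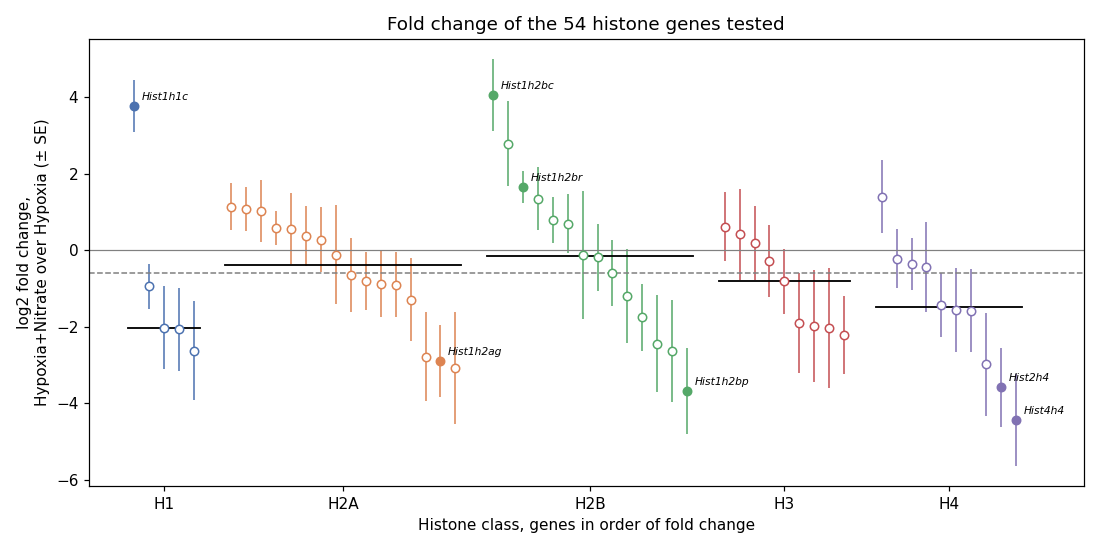
Log2 fold change of Hypoxia+Nitrate over Hypoxia, with its standard error, for the 54 histone genes tested, by class. Filled points passed an adjusted p of 0.05, the black lines are class medians and the dashed line is the median of all genes tested (-0.58). Class medians were -2.02 for H1, -0.38 for H2A, -0.15 for H2B, -0.81 for H3 and -1.49 for H4.

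The linker histones of class H1 bind where DNA enters and leaves the nucleosome. Hist1h1c (ENSMUSG00000036181, chr13:23738808-23740367, plus strand) encodes H1.2, a somatic subtype whose message is also known in polyadenylated form. It had 185, 52.7, 128 and 186 CPM in Hypoxia+Nitrate 1 to 4 and 9.95, 20.5, 5.06 and 4.94 CPM in Hypoxia 1 to 4. Every Hypoxia+Nitrate library lay above every Hypoxia library. The log2 fold change was 3.77 ± 0.69 (SE, n = 4 each; edgeR adjusted p = 0.00917), and the call held in all 21 alternatives tried, with log2 fold changes of 2.84 to 4.97 and adjusted p of at most 0.0482. The counts were 551, 46.9, 125 and 511 times the background level in Hypoxia+Nitrate, and 5.26, 15.1, 2.98 and 3.08 times in Hypoxia. Only 8.54% of its 50-base stretches occur in another gene.

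The 300 bases around the start of Hist1h1c, its promoter, are printed because its call was the one that held in every alternative. The sequence is that of RefSeq (GRCm38.p6, chr13:23738557-23738856, plus strand), and capitals mark AAACACA, an element known from H1 promoters, and CCAAT.
Hist1h1c promoter: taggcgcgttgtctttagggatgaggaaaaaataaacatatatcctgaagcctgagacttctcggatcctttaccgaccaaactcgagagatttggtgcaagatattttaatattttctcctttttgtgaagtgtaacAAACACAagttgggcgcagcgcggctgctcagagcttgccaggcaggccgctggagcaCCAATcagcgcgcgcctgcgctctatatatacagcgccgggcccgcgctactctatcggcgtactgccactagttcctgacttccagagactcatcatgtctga
Searched on both strands, AAACACA occurred in 5 of the 6 H1 promoters and in 7.14% of all 27025 promoters of this length, and CCAAT occurred in all 6 H1 promoters and in 37.9% of all promoters.

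None of the other 4 tested H1 genes passed edgeR's test, and 0 had an unadjusted p under 0.05, whereas DESeq2 called Hist1h1a and Hist1h1e lower and limma-voom called Hist1h1a, Hist1h1e and Hist1h1t lower. Hist1h1d (H1.3) had 2.42, 17.9, 5.77 and 5.32 CPM in Hypoxia+Nitrate and 22.7, 14.6, 11.2 and 11.7 CPM in Hypoxia. Hypoxia+Nitrate 2 lay among the Hypoxia libraries and the other 3 lay below them, for a log2 fold change of -0.94 ± 0.59 (adjusted p = 0.24). Hist1h1e (H1.4) averaged 0.866 ± 0.835 CPM in Hypoxia+Nitrate and 3.68 ± 1.63 CPM in Hypoxia (SD, n = 4 each), with a log2 fold change of -2.07 ± 1.07 (adjusted p = 0.168). Hist1h1a (H1.1) averaged 0.435 ± 0.471 CPM in Hypoxia+Nitrate and 1.8 ± 0.224 CPM in Hypoxia, and did not pass edgeR's test although the groups did not overlap (adjusted p = 0.18). Hist1h1t, the linker histone of the testis, had 0, 0.114, 0.49 and 0 CPM in Hypoxia+Nitrate and 0.534, 2.18, 0.79 and 0.422 CPM in Hypoxia. Its counts were 0.371 times the background level over the Hypoxia+Nitrate libraries and 0.969 times over the Hypoxia libraries, so this gene did not stand above background in either.

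Class H2A pairs with H2B in the outer dimers of the nucleosome. Of its 16 tested genes, 1 fell in Hypoxia+Nitrate by edgeR's test (6.25%, against 12.7% of all genes) and 15 did not pass. DESeq2 and limma-voom each also called Hist1h2ak and Hist2h2ac lower. Hist1h2ag (ENSMUSG00000069301, chr13:22042460-22042944, minus strand) had 0.213, 0.114, 0.381 and 0.39 CPM in Hypoxia+Nitrate 1 to 4 and 0.401, 3.06, 1.58 and 3.37 CPM in Hypoxia 1 to 4. The groups did not overlap, although Hypoxia 1 lay next to the Hypoxia+Nitrate libraries. The log2 fold change was -2.90 ± 0.95 (SE, n = 4 each; edgeR adjusted p = 0.0467). With single libraries left out, the adjusted p was 0.0672 (Hypoxia 1), 0.0941 (Hypoxia 3), 0.144 (Hypoxia 4), 0.0733 (Hypoxia+Nitrate 1) and 0.062 (Hypoxia+Nitrate 4), and the gene did not pass the filter when Hypoxia 2 was left out. Without Hypoxia+Nitrate 1 and 4 together it was 0.0823, and without Hypoxia+Nitrate 2 and 3 it was 0.0222. Of its 50-base stretches 78.9% occur in other histone genes, and a short annotated model, Gm44486, overlaps it, so its counts are uncertain.

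Hist1h2af, the H2A gene with the highest mean CPM per kb, had 8.45, 71.1, 49.9 and 15.4 CPM in Hypoxia+Nitrate and 2.003, 25.0, 22.7 and 21.3 CPM in Hypoxia. The groups overlapped, and the low values were those of Hypoxia+Nitrate 1 and 4 and of Hypoxia 1 (log2 fold change 1.03 ± 0.80, adjusted p = 0.341). Hist1h2al, annotated as a processed pseudogene, was likewise lowest in Hypoxia 1 among the Hypoxia libraries and had 7.18, 28.2, 33.4 and 13.7 CPM in Hypoxia+Nitrate and 3.27, 13.2, 10.2 and 12.3 CPM in Hypoxia (1.08 ± 0.58, adjusted p = 0.18). Without Hypoxia+Nitrate 1 and 4 it was called higher (edgeR adjusted p = 0.0324). Their counts were 310 and 199 times the background level in Hypoxia+Nitrate and 66.1 and 40.2 times in Hypoxia. Both share most of their sequence with other members, 79.7% and 67.6% of 50-base stretches. How reads that fit several genes were counted is not given in the sources used here.

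Hist1h2ac averaged 17.6 ± 9.36 CPM in Hypoxia+Nitrate and 11.7 ± 1.9 CPM in Hypoxia (SD, n = 4 each), a log2 fold change of 0.59 ± 0.45 that did not pass (adjusted p = 0.335) but was called higher without Hypoxia+Nitrate 1 and 4 (adjusted p = 0.0229). Hist1h2ak, at -2.78 ± 1.16, had groups that did not overlap but missed edgeR's threshold (adjusted p = 0.0996). For Hist2h2ac the log2 fold change was -3.08 ± 1.46 (edgeR adjusted p = 0.136). Hist3h2a, an H2A gene of the small Hist3 cluster, had 8.10, 2.79, 5.44 and 19.7 CPM in Hypoxia+Nitrate and 5.54, 4.36, 3.21 and 3.19 CPM in Hypoxia. Only Hypoxia+Nitrate 1 and 4 lay above the Hypoxia range (1.14 ± 0.60, adjusted p = 0.173), and without Hypoxia+Nitrate 2 the gene was called higher. Hist1h2aa, the H2A of the testis, was not tested, with counts of 0, 2, 0 and 0 in Hypoxia+Nitrate and 8, 5, 35 and 2 in Hypoxia. The neighbouring genes Hist2h2aa1 and Hist2h2aa2 lie wholly under other gene models, and their counts of 34 in Hypoxia+Nitrate 1, 29 in Hypoxia 1 and 8 in Hypoxia 3, with 0 elsewhere, cannot be assigned to either.

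Class H2B held 2 genes that rose and 1 that fell by edgeR's test among 14 tested. These are 14.3% and 7.14%, against 11.7% and 12.7% of all genes. DESeq2 also called Hist1h2bg higher and Hist1h2be and Hist1h2bn lower, and limma-voom also called Hist1h2be and Hist1h2bm lower. Hist1h2bc (ENSMUSG00000018102, chr13:23684199-23692908, plus strand), known as a member that also makes a spliced, polyadenylated message, had 85.2, 7.90, 8.38 and 139 CPM in Hypoxia+Nitrate 1 to 4 and 3.004, 5.24, 3.64 and 2.59 CPM in Hypoxia 1 to 4. The groups did not overlap, but Hypoxia+Nitrate 2 and 3 lay close to the Hypoxia range and Hypoxia+Nitrate 1 and 4 far above it. The log2 fold change was 4.05 ± 0.94 (SE, n = 4 each; edgeR adjusted p = 0.0136). Without Hypoxia+Nitrate 1 and 4 it was 1.25 (adjusted p = 0.0603), and without Hypoxia+Nitrate 2 and 3 it was 4.83 (adjusted p = 9.8e-05). The adjusted p was 0.0606 without Hypoxia 1 and 0.0505 without Hypoxia 4. After background subtraction the log2 fold change was 2.26 (limma-voom adjusted p = 0.323). Counts stood at 343, 9.48, 11.0 and 516 times the background level in Hypoxia+Nitrate and at 2.15 to 5.19 times in Hypoxia. Epithelial marker genes were high in the same pair of libraries, which also had the lowest background share and the highest mitochondrial share of counts. These traits cannot be told apart here, and their part in Hist1h2bc was not tested.

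Hist1h2br (ENSMUSG00000069303, chr13:21833743-21837530, plus strand) had 9.95, 12.7, 19.1 and 9.17 CPM in Hypoxia+Nitrate and 3.40, 4.29, 4.53 and 3.85 CPM in Hypoxia. All 4 Hypoxia+Nitrate libraries lay above the Hypoxia range, here without the split seen in Hist1h2bc. The log2 fold change was 1.66 ± 0.41 (adjusted p = 0.0174), and the adjusted p was 0.0654 without Hypoxia 1 and 0.0598 without Hypoxia 3. The log2 fold change was 2.08 (adjusted p = 0.0134) without Hypoxia+Nitrate 1 and 4 and 1.12 (adjusted p = 0.0179) without Hypoxia+Nitrate 2 and 3. After background subtraction it was 1.29 (limma-voom adjusted p = 0.34). Of its 50-base stretches 88.7% occur in other histone genes. Hist1h2bq, whose 50-base stretches are shared to 97.3%, was chosen after its values were seen because it is the fourth member without overlap in the upward direction, with 1.09 to 1.48 CPM in Hypoxia+Nitrate and 0.145 to 0.949 CPM in Hypoxia (1.35 ± 0.82, adjusted p = 0.229).

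Hist1h2bp (ENSMUSG00000069308, chr13:21787461-21789213, plus strand) fell. It had 0, 0.0569, 0.435 and 0.0976 CPM in Hypoxia+Nitrate 1 to 4 and 3.60, 1.09, 1.63 and 1.69 CPM in Hypoxia 1 to 4, from counts of 0, 1, 8 and 2 and of 54, 15, 31 and 28. The groups did not overlap (log2 fold change -3.68 ± 1.13, edgeR adjusted p = 0.0377). With single libraries left out, the adjusted p was 0.0673 (Hypoxia 2), 0.09 (Hypoxia 3), 0.0894 (Hypoxia 4) and 0.0673 (Hypoxia+Nitrate 4), and the gene did not pass the filter when Hypoxia 1 was left out. It was 0.0733 without Hypoxia+Nitrate 1 and 4 and 0.00241 without Hypoxia+Nitrate 2 and 3. The Hypoxia counts were 2.67 times the background level.

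Among the other H2B genes, Hist1h2bg had 13.2, 0.625, 1.25 and 21.03 CPM in Hypoxia+Nitrate and 0.20, 2.47, 0.738 and 1.81 CPM in Hypoxia. As for Hist1h2bc, Hypoxia+Nitrate 1 and 4 were high, but Hypoxia+Nitrate 2 and 3 lay inside the Hypoxia range (2.79 ± 1.11, adjusted p = 0.0865). Hist2h2be, another member known in polyadenylated form, averaged 5.63 ± 2.62 CPM in Hypoxia+Nitrate and 3.24 ± 1.38 CPM in Hypoxia (SD, n = 4 each; 0.80 ± 0.59, adjusted p = 0.319). Hist1h2ba, the H2B of the testis, had counts of 0, 71, 0 and 0 in Hypoxia+Nitrate and 30, 5, 10 and 25 in Hypoxia. Its single high library was Hypoxia+Nitrate 2. Hist3h2ba was not tested and averaged 0.73 ± 0.583 CPM in Hypoxia+Nitrate and 0.618 ± 0.523 CPM in Hypoxia.

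**Figure D4:**
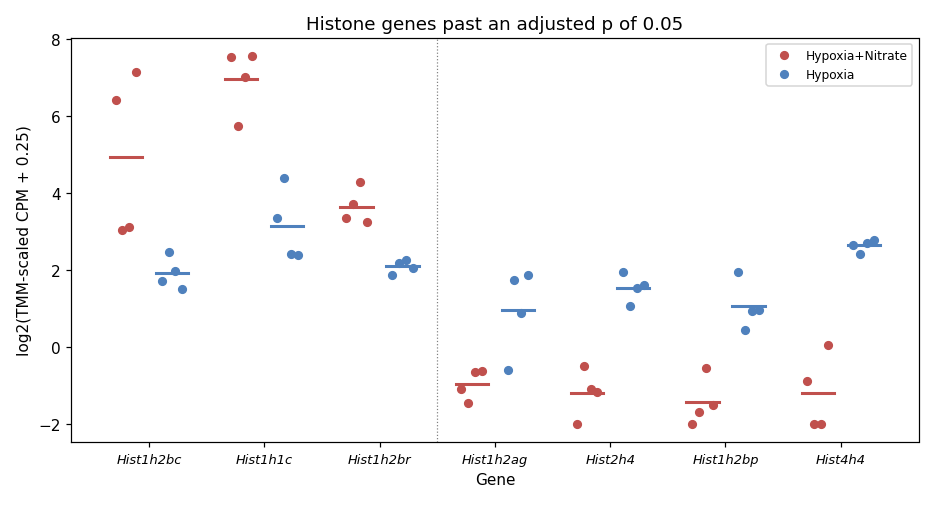
TMM-scaled CPM, as log2(CPM + 0.25), of the 7 histone genes past an adjusted p of 0.05; points are libraries, Hypoxia+Nitrate left of Hypoxia for each gene, and lines are group means. The groups do not overlap in any of the 7, and Hist1h2bc shows 2 low and 2 high Hypoxia+Nitrate libraries.

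Classes H3 and H4 form the tetramer at the core of the nucleosome. None of the 9 tested H3 genes passed edgeR's test, and 0 had an unadjusted p under 0.05, whereas DESeq2 called Hist1h3f lower and limma-voom called Hist1h3e and Hist1h3f lower. Hist1h3f had 0.142, 1.76, 0.218 and 0.195 CPM in Hypoxia+Nitrate and 4.81, 1.75, 2.74 and 1.57 CPM in Hypoxia. Hypoxia+Nitrate 2 lay inside the Hypoxia range and the other 3 below it (-2.21 ± 1.02, edgeR adjusted p = 0.126). For Hist1h3e, 29 counts fell in Hypoxia+Nitrate 2 and 0 in the other 3 Hypoxia+Nitrate libraries, against 20, 7, 65 and 26 in Hypoxia. Hist1h3b and Hist1h3c had log2 fold changes of -1.90 ± 1.31 (adjusted p = 0.286) and -1.99 ± 1.46 (adjusted p = 0.314). Hist1h3g and Hist1h3i had small positive values, 0.42 ± 1.2 and 0.62 ± 0.89, and Hist2h3c1, which lies wholly under another gene model, had 0.19 ± 0.97.

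Class H4 held 2 genes that fell by edgeR's test (20%, against 12.7% of all genes), and the other 8 tested did not pass. DESeq2 and limma-voom each also called Hist1h4a lower. Hist4h4 (ENSMUSG00000096010, chr6:136801553-136804415, minus strand) stands alone on its chromosome, outside the large clusters. It had 0.284, 0, 0 and 0.781 CPM in Hypoxia+Nitrate 1 to 4 and 6.01, 5.09, 6.22 and 6.5 CPM in Hypoxia 1 to 4, from counts of 4, 0, 0 and 16 and of 90, 70, 118 and 108. The Hypoxia libraries lay close together and far above the Hypoxia+Nitrate libraries. The log2 fold change was -4.43 ± 1.19 (SE, n = 4 each; edgeR adjusted p = 0.0234). The adjusted p was 0.0714, 0.0547, 0.0635 and 0.0744 without Hypoxia 1, 2, 3 and 4. It was 0.0134 without Hypoxia+Nitrate 1 and 4 and 0.000586 without Hypoxia+Nitrate 2 and 3. No 50-base stretch of this gene occurs in another histone gene, and 8.52% occur elsewhere. Its counts were 0.215 times the background level over the Hypoxia+Nitrate libraries and 1.99 times over the Hypoxia libraries, so the level in Hypoxia was itself close to background.

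Hist2h4 (ENSMUSG00000091405, chr3:96261682-96263311, minus strand) had 0, 0.455, 0.218 and 0.195 CPM in Hypoxia+Nitrate and 3.60, 1.82, 2.63 and 2.77 CPM in Hypoxia. The groups did not overlap (log2 fold change -3.58 ± 1.02, edgeR adjusted p = 0.0291). The adjusted p was 0.0959, 0.0596, 0.0835 and 0.0782 without Hypoxia 1, 2, 3 and 4. Without Hypoxia+Nitrate 1 and 4 it was 0.0267, and without Hypoxia+Nitrate 2 and 3 it was 0.00181. As for Hist4h4, its counts were near background in Hypoxia, at 1.58 times, and at 0.302 times in Hypoxia+Nitrate. Hist1h4a, at -2.98 ± 1.34, did not pass edgeR's test (adjusted p = 0.121), and neither did Hist1h4n at -1.43 ± 0.83 (adjusted p = 0.21) or Hist1h4d at -0.36 ± 0.67 (adjusted p = 0.701). Hist1h4i was the only H4 gene with a positive value, 1.40 ± 0.95 (adjusted p = 0.275), with 4.48, 1.59, 0.272 and 7.56 CPM in Hypoxia+Nitrate and 0.801, 0.80, 2.06 and 1.57 CPM in Hypoxia, so that Hypoxia+Nitrate 1 and 4 were again the high libraries.

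The H2A and H2B genes often lie head to head and share the DNA between their starts. Of 14 such pairs within 1000 bases, 13 joined an H2A to an H2B gene. In no pair did both members pass edgeR's test, whereas DESeq2 called both Hist1h2ak and Hist1h2bn lower. Without Hypoxia+Nitrate 2 and 3, edgeR called both members of 2 pairs. Hist1h2an and Hist1h2bp were both called lower, while Hist1h2ap was called lower and Hist1h2br higher. Hist1h2bc rose while Hist1h2ac, 250 bases away, had 0.59. Hist1h2br rose while Hist1h2ap had -0.90 (adjusted p = 0.429), Hist1h2bp fell while Hist1h2an had -0.65 (adjusted p = 0.622), and Hist1h2ag fell while Hist1h2bj had -0.19 (adjusted p = 0.884). The differences within pairs were not tested. The shared promoter of Hist1h2ac and Hist1h2bc is printed because the pair contains the highest fold change of the family. It is read on the strand of Hist1h2ac (minus; RefSeq, GRCm38.p6, chr13:23683910-23684209), with capitals for TATAAA, for CCAAT or its complement ATTGG, and for ATGCAAAT, the complement of the octamer ATTTGCAT known from H2B promoters.
Hist1h2ac and Hist1h2bc promoter: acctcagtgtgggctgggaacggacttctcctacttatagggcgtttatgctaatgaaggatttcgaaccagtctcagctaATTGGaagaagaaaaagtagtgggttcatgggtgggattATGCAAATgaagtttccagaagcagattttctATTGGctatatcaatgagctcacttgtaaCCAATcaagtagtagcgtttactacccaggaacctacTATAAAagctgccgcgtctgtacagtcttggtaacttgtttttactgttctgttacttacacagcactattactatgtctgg
Promoters were matched for 61 members. The octamer occurred in 7 of 17 H2A and 6 of 16 H2B promoters and in none of the H1, H3 and H4 promoters, against 1.75% of all promoters. CCAAT occurred in every H2A, H2B, H1 and H3 promoter matched but in 3 of 12 H4 promoters, and TATAAA in 35 of the 61, against 14.2% of all promoters.

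Grouped by annotated transcript, the members differed in their medians. The 3 members without a stem-loop and with several exons, Hist1h2bc, Hist1h2br and Hist1h2bq, all had positive values (median 1.66), and 2 of them rose. The 17 tested members whose transcript ends within 100 bases of the stem-loop had a median of -0.90, with 2 positive values and 2 members that fell. The 21 whose transcript runs on for over 100 bases had a median of -0.81, with 7 positive values, 1 that rose and 2 that fell. The 13 with 1 exon and no stem-loop found had a median of -0.12. Some of their annotated transcripts are short, such as Hist1h2ak and Hist1h2an at 393 bases, and others longer, such as Hist2h2be at 2620. A stem-loop past a short annotated end could not be found. Of all genes tested, 11.7% rose and 12.7% fell. The grouping was made after values were seen and was not tested. Members ending within 100 bases of the stem-loop gave 0.10, 0.67, 0.68 and 0.20 counts per 10000 in Hypoxia+Nitrate and 1.76, 1.22, 1.82 and 1.73 in Hypoxia, without overlap. In summed CPM they gave 6.47 to 20.4 in Hypoxia+Nitrate and 25.1 to 34.99 in Hypoxia, also without overlap. Set against the background level of each library, however, the groups overlapped for these members. They stood at 3.23, 2.85, 3.32 and 7.13 times it in Hypoxia+Nitrate and 2.72, 3.08, 3.29 and 3.65 times in Hypoxia. The part of the background in their counts was not tested.

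Several replication-independent histone variants, which can replace canonical histones outside S phase, rose in Hypoxia+Nitrate. Of 16 tested, 7 rose (43.8%, against 11.7% of all genes) and 1 fell (6.25%, against 12.7% of all genes), with a median log2 fold change of 1.79, beside -0.73 over the members and -0.58 over all genes. The difference between the lists was not tested. H3f3b, which encodes H3.3, had 573, 107, 95.4 and 577 CPM in Hypoxia+Nitrate and 14.4, 30.9, 10.1 and 10.2 CPM in Hypoxia (4.36 ± 0.86, edgeR adjusted p = 0.0092). H2afz, which encodes H2A.Z, had 111, 25.8, 34.7 and 152 CPM in Hypoxia+Nitrate and 8.28, 8.87, 6.32 and 6.99 CPM in Hypoxia (3.41 ± 0.64, adjusted p = 0.0092). All Hypoxia+Nitrate libraries lay above the Hypoxia libraries in both genes, and Hypoxia+Nitrate 1 and 4 were the highest. H2afv, a second H2A.Z gene, rose by a log2 fold change of 3.75 ± 0.66. The other 4 that rose were H3f3a, H1f0, H2afj and H2afx, and the 1 that fell was Hils1, a linker histone of spermatids with no count in any Hypoxia+Nitrate library; these 5 lie outside the rule for named genes and were named after their values were seen. Without Hypoxia 1, 3 of these genes were called higher in place of 7.

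Histone chaperones carry new histones to DNA. Of 22 tested, 9 rose (40.9%, against 11.7% of all genes) and 13 did not pass, with a median of 1.10. After background subtraction limma-voom called 0 of them higher, and 3 were higher at an unadjusted p under 0.05. Rbbp7, a histone-binding subunit of the acetyltransferase that marks new H4, had a log2 fold change of 3.03 ± 0.72 (adjusted p = 0.0152), Nap1l1, an H2A-H2B chaperone, had 2.13 ± 0.48 (adjusted p = 0.0126), and Ubn1, a subunit of the complex that deposits H3.3, had 1.998 ± 0.43 (adjusted p = 0.0107). Asf1b, an H3-H4 chaperone of dividing cells, did not pass and averaged -0.40 ± 0.68 (adjusted p = 0.668). The count of 9 was 1, 5, 3 and 3 without Hypoxia 1, 2, 3 and 4.

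Of 18 genes for histone mRNA synthesis, processing and decay, 3 rose (16.7%, against 11.7% of all genes) and 1 fell (5.56%, against 12.7%), with a median of 0.97. Ncbp2, the small subunit of the nuclear cap-binding complex, had 1.61 ± 0.42 (adjusted p = 0.0206), and Hinfp, an activator of H4 genes, had 1.40 ± 0.38 (adjusted p = 0.0243). The third was Upf1, a helicase that takes part in histone mRNA decay, named after its values were seen. Zfp473, the zinc finger protein of the processing complex, fell, with 1.70, 3.53, 0.435 and 0.488 CPM in Hypoxia+Nitrate and 18.2, 16.9, 16.2 and 19.99 CPM in Hypoxia (-3.53 ± 0.68, adjusted p = 0.0092). Slbp, the stem-loop binding protein, had 19.5, 30.0, 34.3 and 33.7 CPM in Hypoxia+Nitrate and 3.67, 6.04, 14.5 and 25.6 CPM in Hypoxia. Hypoxia+Nitrate 1 lay below Hypoxia 4, and the gene did not pass (1.23 ± 0.58, adjusted p = 0.135). Npat, the coactivator of histone genes at S phase, had 0.15 ± 0.43 (adjusted p = 0.81). Summed, this list stood at 3.25 to 18.2 times the background level in Hypoxia+Nitrate and 1.43 to 2.06 times in Hypoxia. The count of 3 that rose was 0, 1, 0 and 1 without Hypoxia 1, 2, 3 and 4, 8 without Hypoxia+Nitrate 2 and 7 without Hypoxia+Nitrate 3.

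Of 32 genes of S phase and proliferation, 3 rose and 1 fell, with a median of 0.62. These are 9.38% and 3.12% of the list, against 11.7% and 12.7% of all genes, so both shares lay below the background of this comparison. Pcna, the sliding clamp of replication, had 52.9, 1.99, 14.4 and 73.0 CPM in Hypoxia+Nitrate and 5.94, 5.24, 3.85 and 2.35 CPM in Hypoxia. It rose (3.03 ± 0.88, edgeR adjusted p = 0.0303) although Hypoxia+Nitrate 2 lay below every Hypoxia library. Birc5, a mitotic survival factor, rose by 2.45 ± 0.54 (adjusted p = 0.0114), and Cdc6, which loads the replicative helicase, had -1.87 ± 0.55 (adjusted p = 0.0327). The third that rose was Mcm5, a helicase subunit, named after its values were seen. Mki67, the proliferation marker, did not pass, with 14.8, 3.24, 4.03 and 13.7 CPM in Hypoxia+Nitrate and 18.5, 16.003, 15.3 and 20.9 CPM in Hypoxia (-0.99 ± 0.53, adjusted p = 0.184). The groups did not overlap in Mki67. Summed, the S phase list stood at 3.07 to 16.8 times the background level in Hypoxia+Nitrate and 1.52 to 2.24 times in Hypoxia. The count of 3 that rose was 0, 1, 1 and 1 without Hypoxia 1, 2, 3 and 4, 6 without Hypoxia+Nitrate 3 and 1 without Hypoxia+Nitrate 4.

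**Figure D5:**
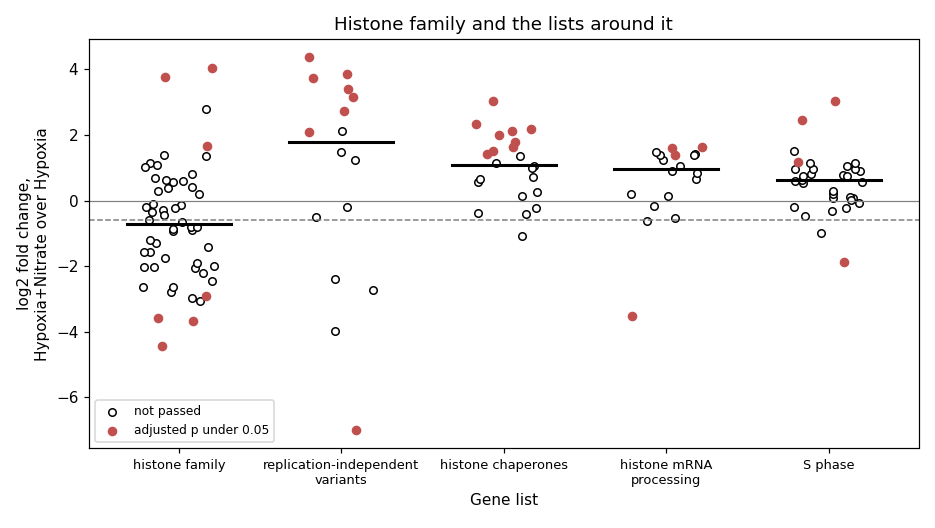
Log2 fold change of Hypoxia+Nitrate over Hypoxia for the histone family and for 4 lists of genes around it; filled points passed an adjusted p of 0.05, black lines are list medians and the dashed line is the median of all genes tested (-0.58). The medians were -0.73 for the family, 1.79 for replication-independent variants, 1.10 for chaperones, 0.97 for histone mRNA processing and 0.62 for S phase genes.

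Markers of cell types were read from the same fit. All 12 epithelial markers rose, and their summed level was 525, 66.9, 37.8 and 496 counts per 10000 nuclear protein-coding counts in Hypoxia+Nitrate 1 to 4 and 12.6, 33.6, 3.38 and 3.11 in Hypoxia 1 to 4. In Hypoxia 3 and 4 that level was 1.91 and 2.04 times background, so the markers that define small intestinal epithelium were nearly absent there. All 8 smooth muscle markers rose, at 23.0 to 126 counts per 10000 in Hypoxia+Nitrate and 5.51 to 27.6 in Hypoxia. These calls depended on single libraries too. Without Hypoxia 1, 2, 3 and 4, 0, 9, 3 and 1 epithelial and 0, 6, 1 and 1 smooth muscle markers were called higher. All 12 and all 8 kept an unadjusted p under 0.05 in those fits. After background subtraction limma-voom called 3 epithelial and 0 smooth muscle markers higher. Of 12 leukocyte markers, 4 rose (Coro1a, Cd3e, Jchain and Lyz2), which is 33.3% against 11.7% of all genes. The leukocyte list gave 2.35 to 6.68 in Hypoxia+Nitrate and 3.31 to 5.10 in Hypoxia. Of 10 testis germ cell markers tested, 2 fell (Zpbp and Odf1), which is 20% against 12.7% of all genes. The testis list gave 0.34 to 3.32 in Hypoxia+Nitrate and 2.37 to 3.20 in Hypoxia. Of 9 pancreatic acinar markers tested, 2 fell (Cela2a and Cela3b), which is 22.2% against 12.7% of all genes. The pancreatic list gave 0.14 to 0.64 in Hypoxia+Nitrate and 1.15 to 1.46 in Hypoxia, where it stood at 1.03 to 1.32 times background. The markers named in brackets were chosen after their values were seen. Of all markers in a list, 3 of 12 leukocyte markers were at 0 in Hypoxia+Nitrate 1, 3 to 7 of 12 testis markers were at 0 in each Hypoxia+Nitrate library and at most 1 in a Hypoxia library, 2 to 6 of 10 pancreatic markers were at 0 in each Hypoxia+Nitrate library, and no epithelial marker was at 0 in any library. The part of the cell types and of the background in the histone values was not tested.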

How the data were processed

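Per the labels' protocols, small intestine was kept in a stabilising solution, total RNA was isolated with TRIzol (that step names islets) and a stranded kit was used for the libraries. Per the submitters' processing notes, the authors used HISAT, featureCounts 1.5.0-p3 and DESeq 1.8.3 with build GRCm38. Not stated there or in the labels are the annotation, the strand setting and how reads that fit several genes were counted. The authors deposited raw read counts per gene, and the 8 per-sample columns equalled those of the joint table. Groups and replicate numbers came from sample titles.

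From these counts, edgeR 4.0.16 in R 4.3.3 fitted Hypoxia+Nitrate against Hypoxia over all genes: filterByExpr (minimum count 10, total 15), TMM scaling, quasi-likelihood test, Benjamini-Hochberg adjustment at 0.05. CPM are TMM-scaled, and SEs derive from the fold change and its F statistic. The fit was tested on simulated data. Alternatives used DESeq2 1.42.0, limma 3.58.1 (voom), other scalings and filters, a replicate block, background subtraction and left-out libraries. Background-subtracted counts were fitted by limma-voom over nuclear protein-coding genes only. The background is the counts per kb of exon free of other genes over 1444 autosomal receptor genes, multiplied by each gene's own such length. GENCODE M21 positions matched all 69 members. Sequence sharing was counted over 50-base stretches.

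Named members were, per class, the 4 with the lowest p and the 3 with the highest mean CPM, with testis and polyadenylated members and the Hist3 and Hist4 genes; in each other list, the 3 lowest p and 7 set genes. Members and lists were chosen with earlier results of these data known. In the lists, Ars2 and Mizf are older names of genes already listed, and Zcchc6 and Zcchc11 matched no name.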

Additional observations from a re-analysis of the deposited data

Results flagged for a closer look

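Groups of 4 libraries were examined by Dixon's test, for named genes in CPM and for the family level. In 8 of 100 such groups, 1 library lay far from the other 3. The nominal rate of about 1 in 20 assumes normal values, so it cannot be set against this count. For Hist1h2ba, Hist1h2aa and Hist1h3e, Hypoxia+Nitrate 1, 3 and 4 had 0 counts, so any count in Hypoxia+Nitrate 2 is flagged. Hypoxia+Nitrate 2 was the high library in 6 of the 8: Hist1h2ba at 4.04 CPM, Hist1h3f at 1.76 CPM, Hist1h3e at 1.65 CPM, Hist1h4a at 1.42 CPM, Hist2h2ac at 1.14 CPM and Hist1h2aa at 0.114 CPM, the last from 2 counts. In Hypoxia, Hist1h2af was low in Hypoxia 1 at 2.003 CPM and Hist1h4n was high in Hypoxia 2 at 4.44 CPM. All 8 genes are histone genes, as were most of the named genes examined, and the cause was not tested.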

How the results depend on the processing

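Hist1h1c kept its call in all 21 alternatives, and no called gene changed sign in any. Members higher and lower, 3 and 4 in the report, were 1 and 1 by library size alone. After background subtraction they were 1 and 4. Over all genes the counts were 243 and 1557 of 35431 by library size alone. After background subtraction they were 629 and 1389 of 14978 nuclear protein-coding genes. The 4 lower after subtraction were Hist1h2bp, Hist1h4a, Hist1h4b and Hist4h4, and 3 of the 7 calls in the report were kept. The count lower was 7 of 67 members without a filter and 2 of 43 with CPM of 1 in 4 libraries. It was 12 of 54 with DESeq2 and 14 of 54 with limma-voom. In the same order, 11654 of 54176, 3399 of 31606, 10038 of 35431 and 11948 of 35431 genes were called lower. Without Hypoxia 1 and 2 the counts were 1 and 0 (3 lower at an unadjusted p under 0.05). Without Hypoxia+Nitrate 2 and 3, added after seeing the data, they were 6 and 21. Over all genes these fits called 624 and 3603 of 41205, and 6876 and 25004 of 45788. Single libraries left out gave 1 to 5 members higher and 0 to 12 lower, and 676 to 5974 genes higher and 1256 to 16480 lower. The member median of -0.73 was -2.17 after background subtraction, over 34 members, when the median of all 14978 genes in that fit was 0.06. Those 14978 genes are nuclear protein-coding only, and the fit was by limma-voom. Among nuclear protein-coding genes without subtraction, edgeR gave medians of -1.07 over the members and -0.31 over all such genes. Against all genes the member median differed by -0.14 in the fit reported, by 0.66 without a filter and by -0.755 among nuclear protein-coding genes alone. The log2 ratio of the summed counts was -0.17, and 0.27 per all counts or 1.06 in TMM-scaled CPM.

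Deviations from the group mean, over the genes tested, had correlations of 0.05, -0.18, 0.18 and -0.05 between same-numbered samples. These values cannot settle whether the numbers pair samples, because the libraries also differ in background and in other shares of counts. With the replicate block 1 member was called higher and 1 lower, against 2176 and 2615 of 35431 genes. Of the lists, 0 genes of histone mRNA processing, 4 chaperones and 1 S phase gene were called higher, and 7 variants as before.

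Calls higher in the lists of histone mRNA processing, variants, chaperones and S phase, 3, 7, 9 and 3 in the report, were each 0 by library size alone (0, 5, 1 and 1 at an unadjusted p under 0.05). With upper-quartile scaling mRNA processing gave 0 and chaperones 5. After background subtraction they were 1, 3, 0 and 2, without Hypoxia 1 and 2 they were 0, 3, 2 and 1, and without Hypoxia+Nitrate 2 and 3 they were 9, 9, 15 and 13. Single libraries left out gave 0 to 8, 3 to 9, 1 to 11 and 0 to 6. The cause was not tested. Of 965 values of 47 named genes, 102 lost and 43 gained a call, and 44 changed sign without being called under either setting. Depth limits members with few counts: a count of 0 allows up to 3.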
